A study of Mus musculus with 10 samples.

Results

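Tumour-associated macrophages with the phosphatidylserine to Mertk axis disturbed on either side were compared with control macrophages. The altered set was chosen by its labels alone: all 7 libraries of both altered groups, set against the 3 control libraries, which together are all 10 libraries of the study. In the altered average the 4 Mertk KO libraries and the 3 Ptdss1 knockdown libraries count as groups of equal weight, 0.5 each. The question is which genes move together whichever end of the axis is disturbed.

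All mice were C57BL/6 and carried orthotopic tumours grown for 5 weeks from injected PyMT mammary tumour cells, cells of tumours that arise from the polyoma middle T oncogene. In the control libraries (3) host and tumour cells were both wild type. Mertk KO libraries (4) came from mice labelled as lacking Mertk in their macrophages, also with wild-type tumour cells, and in the Ptdss1 knockdown libraries (3) the host was wild type and Ptdss1 was knocked down in the injected cells. The sources used here give neither the driver of the macrophage deletion, nor the knockdown reagent, nor the ages of the mice, nor whether glands or mice were pooled. The altered groups therefore differ from each other in both the host and the tumour cell, and each differs from control in only 1 of them. Nothing in the labels says which libraries came from separate mice, so the p-values measure the spread between these libraries.

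Dying cells move phosphatidylserine, which Ptdss1 and Ptdss2 synthesise, to the outer leaflet of their membrane. The bridging proteins Gas6 and Pros1 bind the exposed lipid on one side and the receptors Mertk, Axl and Tyro3 on the other, and Mertk then drives engulfment of the dying cell and dampens inflammatory signalling. In tumours, uptake of apoptotic cells through this route is known for keeping macrophages in a tolerant, tissue-repair state.

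Levels below are log2(normalised reads + 1), in which 1 unit is a doubling of a well-read gene, and differences are altered minus control on that scale. Total reads ran from 10292592 to 25815071. Genes with at least 10 reads numbered 9066 to 11189 in the controls, 9585 to 11484 in Mertk KO and 6995 to 11523 in Ptdss1 knockdown. Ptdss1 knockdown replicate 1 stood apart with 6995, and control replicate 2 was the lowest control with 9066. The altered libraries averaged 10205 ± 1573 genes (SD, n = 7) and the controls 10370 ± 1142 (SD, n = 3), a difference of -165 (exact permutation test over all 120 choices of 3 libraries, two-sided p = 0.908). The 16 macrophage markers summed to between 17097 and 29307 CPM (reads scaled to the total of the library) in every library. These markers were thus read in all 3 groups, but their sum alone does not settle the identity of the cells.

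Neither perturbed gene separated the groups at the level of the whole gene. Mertk stood at 9.64, 9.26 and 10.97 in the controls, at 10.63, 9.72, 9.24 and 8.95 in the libraries labelled Mertk KO and at 7.47, 10.20 and 9.0 in Ptdss1 knockdown. The groups overlapped, and the pooled difference was -0.69 (SE 0.64, between -1.04 and -0.18 with 1 library left out). A whole-gene value cannot show whether part of Mertk was deleted, so it leaves the KO label unchecked, and every direction drawn below from Mertk KO rests on that label. Ptdss1 was targeted in the tumour cells, not in the sorted cells, so its level here checks nothing about the knockdown. It stood at 9.73, 10.36 and 9.44 in the controls, at 8.04, 9.47, 8.14 and 10.12 in Mertk KO and at 1.85, 9.43 and 9.58 in Ptdss1 knockdown. Its pooled difference of -1.89 (SE 1.29) was -0.62 without Ptdss1 knockdown replicate 1, the library with the fewest genes.

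The other members of the axis did not pass the test either. Axl, the sister receptor of Mertk, stood at 12.33 to 12.51 in the controls, at 10.35 to 11.54 in Mertk KO and at 14.20, 12.05 and 11.72 in Ptdss1 knockdown. The Mertk KO libraries were all below the controls while Ptdss1 knockdown lay on both sides, so the arms gave -1.26 and 0.25 and the pooled value of -0.50 (SE 0.48) describes neither. Gas6, the bridging ligand, had a median of 10.28 over the altered libraries (8.38 to 11.68) against 8.36 to 9.25 in the controls, and was 1.32 (SE 0.67) higher. Pros1, the other bridge, was 0.51 (SE 1.47) higher on average, with -0.92 in Ptdss1 knockdown against 1.93 in Mertk KO. Ptdss2, the second phosphatidylserine synthase, stood at 6.88, 0 and 5.58 in the controls and at 6.81 to 10.64 in the altered libraries. Its difference of 3.72 (SE 1.53) was 1.64 without control replicate 2, where it was at 0. Tyro3, the third receptor, was at 0 in all 10 libraries and was not tested.

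No gene passed in the pooled comparison. Of 11564 genes tested with limma, 0 were higher (0%) and 0 lower (0%) at a Benjamini-Hochberg adjusted p below 0.05, and the smallest adjusted p was 0.405, shared by Fn1 and Spp1. At an unadjusted p below 0.05 there were 175 genes higher (1.51%) and 60 lower (0.519%). Together these were 2.03% of genes, below the share of 0.05 that the threshold allows without any difference. Asking instead for the same direction in each altered group against control, with the larger of both p-values, gave 0 genes after adjustment (0%) and 37 before (0.32%), 27 of them higher (0.233%) and 10 lower (0.0865%). Taken alone, Mertk KO against control gave 2 genes higher (0.0173%), Fn1 and Spp1, each at a limma adjusted p of 0.0317 (238 genes unadjusted, 2.06%, of which 132 higher, 1.14%, and 106 lower, 0.917%), and Ptdss1 knockdown against control gave 0 of 11564 (335 at an unadjusted p below 0.05, 2.90%, of which 185 higher, 1.6%, and 150 lower, 1.30%). Both of these comparisons use the same 3 control libraries. The altered groups tested directly against each other also gave 0 genes (431 unadjusted, 3.73%, of which 252 higher in Mertk KO, 2.18%, and 179 lower, 1.55%).

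The genes described next were picked by their pooled p and by having all 7 altered libraries beyond all 3 controls. That non-overlap and their small p are therefore how they were chosen and support nothing. They are 12 genes higher and 12 lower with a mean level of at least 6 in the higher of both sides, and none passed the pooled test.

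Fn1 and Spp1, which encode secreted proteins, led the higher side by pooled p. The genes after them are not given in that order: Fbxl5, Senp1, Acod1, Nle1 and Cd1d1 ranked ahead of Timp1 and Fam20c. Fibronectin (Fn1, chromosome 1, 71585520 to 71653200, minus strand, GRCm38), an adhesive glycoprotein of the extracellular matrix, stood at 12.66, 12.45 and 12.90 in the controls. It was at 14.49, 14.69, 15.29 and 15.13 in Mertk KO and at 13.70, 13.64 and 13.87 in Ptdss1 knockdown. The 3 groups did not overlap, with Ptdss1 knockdown lying between control and Mertk KO. The pooled difference was 1.65 (SE 0.32), made of 2.23 in Mertk KO and 1.07 in Ptdss1 knockdown, and the arms differed by 1.17 (SE 0.35, limma unadjusted p = 0.0038, adjusted p = 0.805).

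Osteopontin (Spp1, chromosome 5, 104435118 to 104441050, plus strand, GRCm38), a secreted phosphoprotein that binds integrins and CD44, followed the same order. Control levels were 12.31, 12.93 and 12.58. Mertk KO levels were 15.41, 15.58, 17.54 and 14.81, and Ptdss1 knockdown levels 13.77, 13.88 and 14.66. Again each Ptdss1 knockdown library lay above every control and below every Mertk KO library. The pooled difference was 2.36 (SE 0.46), with 3.23 in Mertk KO and 1.5 in Ptdss1 knockdown, and the arms differed by 1.73 (SE 0.51, limma unadjusted p = 0.0031, adjusted p = 0.805).

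Timp1 (chromosome X, 20870166 to 20874735, plus strand, GRCm38), which inhibits matrix metalloproteinases, stood at 6.75, 7.01 and 6.05 in the controls. Its levels were 9.55, 10.43, 11.12 and 8.52 in Mertk KO and 9.35, 7.36 and 8.42 in Ptdss1 knockdown. Every altered library was above the highest control, and here the altered groups overlapped each other. The pooled difference was 2.54 (SE 0.81), 3.31 in Mertk KO and 1.78 in Ptdss1 knockdown. Fam20c, the Golgi kinase that phosphorylates secreted proteins including osteopontin, was at 6.66, 6.91 and 7.24 in the controls, at 8.58 to 10.66 in Mertk KO and at 12.14, 8.48 and 8.16 in Ptdss1 knockdown. Its arms were 2.59 and 2.66 (pooled SE 0.84), and without Ptdss1 knockdown replicate 1 the second was 1.38.

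With limma weights that give each library its own precision, 5 genes were higher in the pooled comparison and 0 lower. They were Spp1 (adjusted p = 0.00012), Htra1 (0.0109), Fn1 (0.0152), Mmp12 (0.0204) and Timp1 (0.0392). Over the other alternatives the smallest adjusted p was 0.22 for Spp1 and for Fn1, 0.324 for Htra1, 0.509 for Mmp12 and 0.820 for Timp1, and the largest lay above 0.99 for each. The weights were 0.073 for Ptdss1 knockdown replicate 1 and 0.2805 for control replicate 2, against 4.35 for Ptdss1 knockdown replicate 3. Htra1 encodes a serine protease that acts outside the cell. Its control levels were 2.09, 0 and 0, against 8.60, 7.92, 10.15 and 9.28 in Mertk KO and 0, 6.87 and 6.07 in Ptdss1 knockdown. It was absent among reads of Ptdss1 knockdown replicate 1 and read in the other 6 altered libraries, and the arms were 8.29 and 3.62 (pooled 5.95, SE 1.69). Mmp12, the macrophage elastase, stood at 9.28, 12.73 and 10.85 in the controls and between 11.91 and 13.73 in the altered libraries. Control replicate 2 was as high as the altered libraries, and the pooled value of 1.92 (SE 0.57) became 2.80 without it and 1.08 without control replicate 1.

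Upstream sequences are shown for the secreted and immune genes that lie highest in this ordering and for 1 gene of the opposite direction, so that the start-site regions of genes moving apart can be read side by side. RefSeq promoters (GRCm38.p6) were matched for 15 of the 24 genes; Fn1 and Crem are among the 9 not matched. Each line gives the 250 bases before the start site, plus strand, 5′ to 3′, for Spp1 (chr5:104434861-104435110), Timp1 (chrX:20869916-20870165), Acod1 (chr14:103046762-103047011) and Sdcbp2 (chr2:151572373-151572622). Capitals mark a match to a motif searched on both strands: TGACGTCA (the cAMP response element), TGANTCA (AP-1), GAGGAAGT (PU.1) or TTCNNNGAA (STAT).
Spp1: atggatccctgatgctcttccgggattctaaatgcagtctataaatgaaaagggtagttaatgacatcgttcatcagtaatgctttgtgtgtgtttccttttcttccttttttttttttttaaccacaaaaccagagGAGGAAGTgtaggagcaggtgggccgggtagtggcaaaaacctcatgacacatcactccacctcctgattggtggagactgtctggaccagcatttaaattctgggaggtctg
Timp1: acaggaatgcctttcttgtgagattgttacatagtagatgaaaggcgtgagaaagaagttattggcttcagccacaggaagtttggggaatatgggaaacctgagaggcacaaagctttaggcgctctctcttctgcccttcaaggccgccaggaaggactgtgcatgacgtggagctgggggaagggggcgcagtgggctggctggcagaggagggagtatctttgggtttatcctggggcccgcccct
Acod1: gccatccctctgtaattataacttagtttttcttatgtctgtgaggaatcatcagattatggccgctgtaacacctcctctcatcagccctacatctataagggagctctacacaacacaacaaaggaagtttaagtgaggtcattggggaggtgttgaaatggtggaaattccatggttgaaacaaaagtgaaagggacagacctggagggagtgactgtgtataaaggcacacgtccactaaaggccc
Sdcbp2: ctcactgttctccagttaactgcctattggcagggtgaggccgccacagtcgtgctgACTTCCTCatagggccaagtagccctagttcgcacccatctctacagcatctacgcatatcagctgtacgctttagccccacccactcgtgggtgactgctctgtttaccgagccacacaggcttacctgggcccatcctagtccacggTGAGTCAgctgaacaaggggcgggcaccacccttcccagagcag

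Spp1 held the PU.1 letters, Sdcbp2 held PU.1 and AP-1, and Timp1 and Acod1 held none of the 4. Sdcbp2 was not the first matched gene of the lower side by rank: Rwdd3, with a smaller pooled p, held none of the 4. The printed sequences therefore do not stand for either side. PU.1 letters occurred in 2.44% of all 32851 promoters of this length, AP-1 in 6.75%, STAT in 7.02% and the cAMP response element in 1.55%. Among the 8 matched genes of the higher side, PU.1 letters were in 2 (Spp1 and Zfp84), STAT in 1 (Zfp84) and the others in 0. Among the 7 of the lower side, AP-1 was in 2 (Sdcbp2 and Tmcc3), PU.1 in 1 (Sdcbp2) and the others in 0. These counts take a gene as holding a motif if any of its start sites does, while the shares are per promoter. Per promoter, PU.1 was in 2 and STAT in 1 of 10 on the higher side, and AP-1 in 2 and PU.1 in 1 of 12 on the lower side. Of the 6 Tmcc3 start sites 1 held AP-1, and of the 2 Spp1 start sites only the one printed held PU.1.

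**Figure D1:**
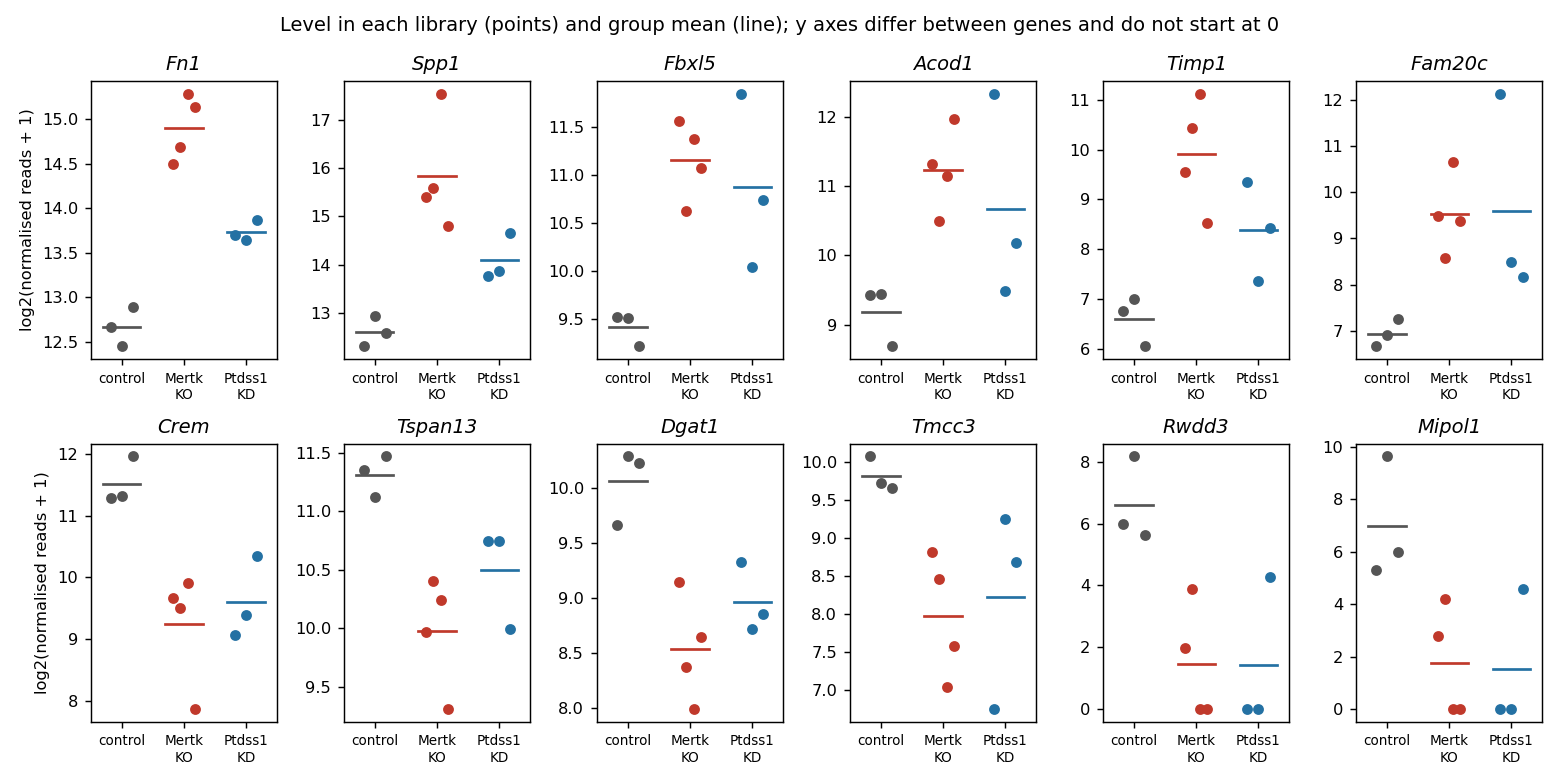
Level of 12 genes in each library as log2(normalised reads + 1); points are libraries, lines are group means, and the y axes differ between genes. In the upper row all 7 altered libraries lie above the 3 controls and in the lower row all lie below, which is how the genes were chosen; for Fn1 and Spp1 the Ptdss1 knockdown libraries sit between control and Mertk KO.

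Acod1 (chromosome 14, 103046977 to 103056573, plus strand, GRCm38), the enzyme of activated macrophages that makes itaconate, stood at 9.43, 9.45 and 8.69 in the controls. It was at 11.33, 10.49, 11.14 and 11.96 in Mertk KO and at 12.33, 9.49 and 10.17 in Ptdss1 knockdown. The lowest altered library lay just above the highest control, and the pooled difference was 1.76 (SE 0.55). Its Ptdss1 knockdown arm of 1.48 was 0.64 without replicate 1 of that group. Fbxl5, the iron-sensing ubiquitin ligase adaptor that degrades Irp2, was at 9.53, 9.52 and 9.22 in the controls and at 10.05 to 11.84 in the altered libraries, 1.6 (SE 0.45) higher, with arms of 1.73 and 1.46 (0.97 in Ptdss1 knockdown without its replicate 1). Adgre5, the adhesion receptor CD97, was at 5.65 to 7.89 in the controls and at 7.99 to 10.53 in the altered libraries (pooled 2.35, SE 0.80). Cd1d1, which presents lipids to NKT cells, was at 2.74, 0 and 4.92 in the controls against 5.76 to 10.26. The difference for Cd1d1 was 4.93 (SE 1.56), with control replicate 2 at 0.

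Like Cd1d1, the remaining 4 genes of the higher side had a low or absent value in control replicate 2. Senp1, a SUMO protease, stood at 6.20, 3.06 and 7.62 in the controls and at 8.16 to 10.74 in the altered libraries. Nle1, a factor of large ribosomal subunit assembly, stood at 0.86, 0 and 4.99 against 5.33 to 8.62. Glipr2 and the zinc finger gene Zfp84 were at 0 in control replicate 2, at 5.56 to 6.18 in the other controls and at 6.35 to 11.28 in the altered libraries. Without that library the pooled differences went from 3.41 to 2.12 for Senp1, from 4.59 to 2.62 for Glipr2 and from 4.16 to 2.26 for Zfp84. Ptdss1 knockdown replicate 1 was the highest of all 10 libraries for 9 of the 12 genes.

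Crem led the lower side. Crem (GRCm38 chromosome 18, minus strand) encodes the cAMP responsive element modulator, whose short ICER forms repress cAMP-driven transcription. It stood at 11.29, 11.31 and 11.96 in the controls, at 9.66, 9.51, 9.91 and 7.87 in Mertk KO and at 9.06, 9.39 and 10.34 in Ptdss1 knockdown. The altered groups overlapped each other and none of their libraries reached a control. The pooled difference was -2.10 (SE 0.52), with -2.28 and -1.92 in the arms, and leaving out any 1 library kept it between -2.29 and -1.87. The limma adjusted p was 0.994, and 0.0565 with library weights. The other 19 tested genes of the cAMP response list were split 9 positive to 10 negative, with a median of -0.01 beside -0.05 for all genes; with Crem the list stood at 9 to 11 and -0.11. Per1, a clock gene induced by cAMP, gave -1.6 (SE 0.77, and -0.97 without control replicate 3) and Fosl2, an AP-1 subunit, -0.86 (SE 0.43).

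Another 3 genes of the lower side were well read in every library. Tspan13, a tetraspanin, stood at 11.35, 11.12 and 11.47 in the controls, at 9.31 to 10.40 in Mertk KO and at 10.74, 10.75 and 9.99 in Ptdss1 knockdown (pooled -1.08, SE 0.41). Dgat1, which catalyses the last step of triglyceride synthesis, was at 9.66, 10.28 and 10.23 against 7.99 to 9.32 (pooled -1.30, SE 0.56). Tmcc3, a membrane protein of the endoplasmic reticulum, was at 9.65 to 10.07 against 6.75 to 9.24 (pooled -1.72, SE 0.76). Arms were -1.33 and -0.82 for Tspan13, -1.52 and -1.09 for Dgat1 and -1.84 and -1.59 for Tmcc3. Without Ptdss1 knockdown replicate 1 the second arm of Tmcc3 was -0.85.

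The other 8 genes of the lower side were each at 0 in at least 1 altered library, and some were well read in others. Xlr, for example, had 0 reads in Ptdss1 knockdown replicate 1 and 191 in replicate 3. Rwdd3, an enhancer of SUMO conjugation, was at 5.99, 8.17 and 5.62 in the controls and at 0 in 4 of the 7 altered libraries, up to 4.28. Mipol1 was at 5.32, 9.64 and 5.98, and again at 0 in the same 4 libraries, up to 4.56. Rad54b, a helicase of homologous recombination, was at 7.37, 6.74 and 5.93 in the controls and at 0 to 5.64 in the altered libraries. Sdcbp2 (syntenin 2), Xlr, Nrg2 (neuregulin 2), Zbtb39 and Irak1bp1 had altered minima of 0 and altered maxima of 4.42 to 6.88, against control minima of 5.14 to 7.61. Control replicate 2 was the highest control in 7 of these 8, all but Rad54b, and Ptdss1 knockdown replicate 1 was at 0 in 6, all but Rad54b and Nrg2. Pooled differences for the 8 ran from -5.43 to -3.76 with SEs of 1.55 to 1.89.

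**Figure D2:**
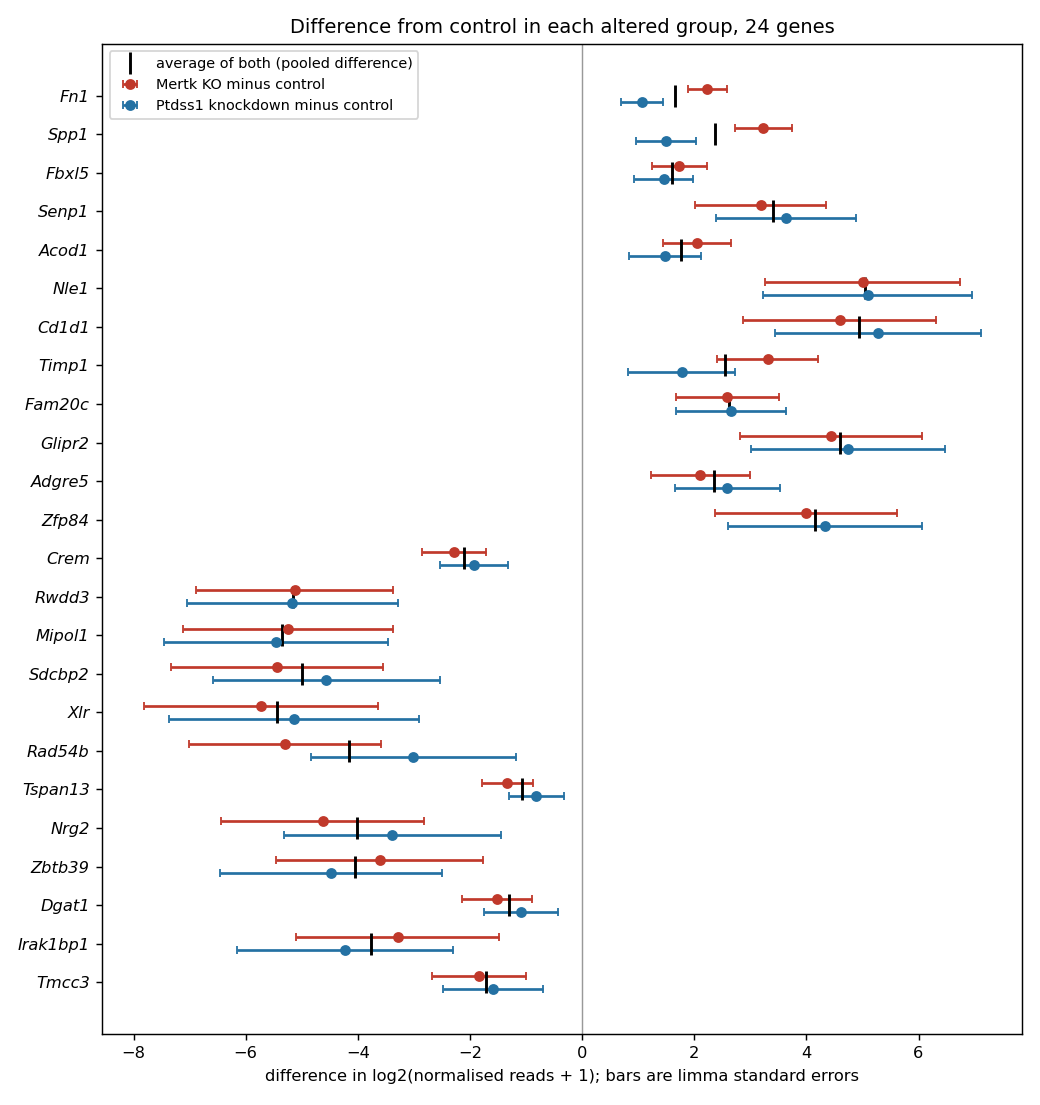
Difference from control in Mertk KO (red) and in Ptdss1 knockdown (blue) for the 12 higher and 12 lower genes, in log2(normalised reads + 1) with limma standard errors; black ticks are the pooled difference. Standard errors of the arms overlap for most genes and are clear of each other for Fn1 and Spp1, where Mertk KO lies farther from 0.

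Within these 24 genes the arms were of the same sign throughout, which the choice of non-overlapping genes fixes. Mertk KO lay farther from control in 5 of the 12 higher genes and 8 of the 12 lower, Ptdss1 knockdown in 7 and 4. Tested directly, the arms differed at an unadjusted p below 0.05 for 2 of the 24, Fn1 and Spp1, and for 0 after adjustment over all genes (smallest adjusted p 0.805). That test does not show that the arms of the other 22 act alike: for Timp1 the difference between arms was 1.53 (SE 0.89) and for Rad54b -2.29 (SE 1.71).

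Over all genes tested, 62 had every altered library above every control (0.536%) and 78 had every altered library below (0.675%), together 140 (1.21%). With labels moved at random, the controls would be the 3 lowest libraries in 1 of 120 choices, and the 3 highest in 1 of 120. Neither share lies above that, so the counts alone show no shared response. The 62 had a median pooled difference of 1.55 (1.43 in Mertk KO, 1.55 in Ptdss1 knockdown). Ptdss1 knockdown replicate 1 was the highest of all 10 libraries in 44 of the 62 (71.0%), against 28.8% of all genes tested. Control replicate 2 had under 10 reads in 13 of the 62 (21.0%), against 22.4% of all genes. The 78 had a median of -1.93 (-1.33 in Mertk KO, -2.67 in Ptdss1 knockdown), and Ptdss1 knockdown replicate 1 had under 10 reads in 45 of them (57.7%), against 40.1% of all genes. With at least 10 reads demanded in all 10 libraries, 49 higher and 32 lower genes were counted. The part of these libraries in the counts was not tested further.

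Both cell cycle lists lay on the lower side. Of 36 mitosis genes 33 were negative and 3 positive, with a median pooled difference of -1.17 (-1.56 in Mertk KO, -1.10 in Ptdss1 knockdown), and of 31 S phase genes 29 were negative and 2 positive, with a median of -1.23. Over all genes tested 6035 were negative and 5529 positive, with a median of -0.05. None of these genes passed the test. Cenpa, the centromeric histone, gave -2.45 (SE 1.20, and -1.41 without Ptdss1 knockdown replicate 1). Aurkb, the mitotic kinase Aurora B, gave -3.42 (SE 1.79, and -2.53 without that library) and Cdk1 -2.51 (SE 1.53, and -1.24 without it). The Mertk KO arm of Aurkb was -4.83, and its Ptdss1 knockdown arm was -0.22 without replicate 1 of that group. For the helicase subunit Mcm4 the controls stood at 9.71, 9.86 and 8.79, Mertk KO at 7.76 to 8.69 and Ptdss1 knockdown at 7.26, 8.98 and 8.73 (pooled -1.14, SE 0.70). Knl1, a kinetochore scaffold, was the only member of either list with all altered libraries below all controls. Over all genes tested the share was 0.675%, and 1 gene of these lists is too few to set beside it.

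The list averages show how far single libraries carried this. Mitosis genes averaged 7.92, 4.89 and 6.16 in the controls, 5.19, 6.17, 5.68 and 2.66 in Mertk KO and 1.83, 7.13 and 6.60 in Ptdss1 knockdown. The control and altered ranges overlapped widely, and Ptdss1 knockdown replicates 2 and 3 lay above the control mean. Without Ptdss1 knockdown replicate 1 the mitosis median was -0.54 (15 positive, 21 negative) and the S phase median -0.47 (10 and 21). Without control replicate 1 the mitosis median was -0.50, and without control replicate 2 it was -2.21. In sorted bulk cells, fewer dividing cells and less of these transcripts per cell cannot be told apart.

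**Figure D3:**
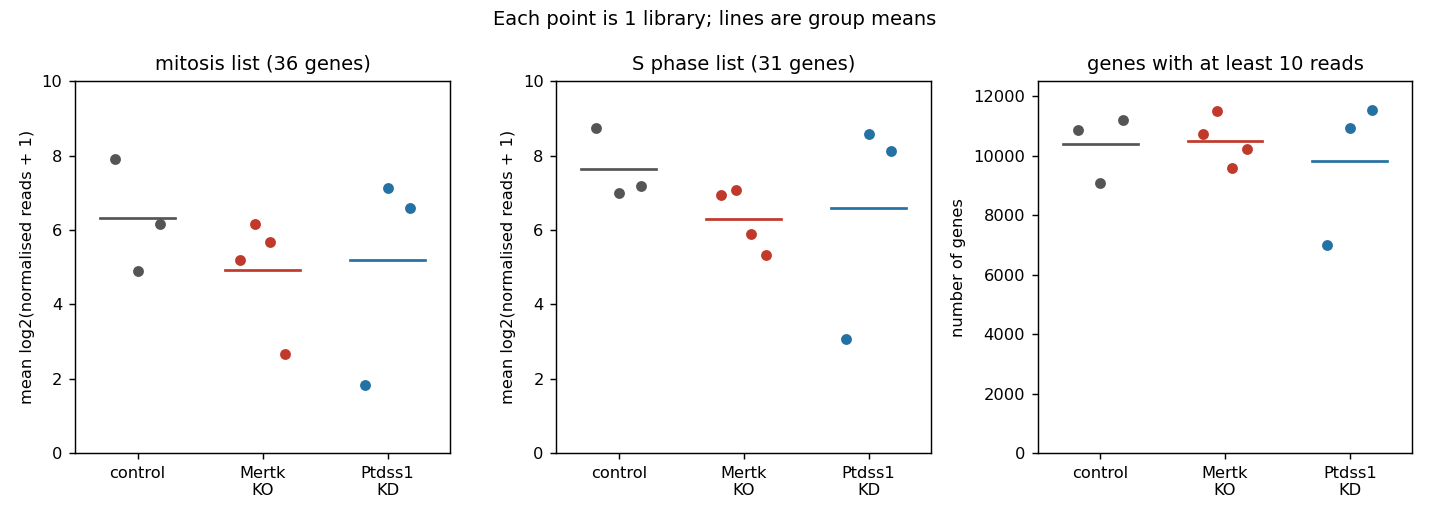
Mean level of the mitosis list (36 genes) and the S phase list (31 genes) and the genes read at least 10 times, 1 point per library with group means as lines. Ptdss1 knockdown replicate 1 is lowest in all 3 panels, and the other 2 Ptdss1 knockdown libraries lie within or above the control range.

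No member of the NF-kB, chemokine, cytokine or immediate early lists passed the test. Of 17 NF-kB subunits and feedback inhibitors 16 were positive, with a median of 0.42 (0.36 and 0.48 in the arms). The count was 13 of 17 with a median of 0.08 without control replicate 3, 11 of 17 without Ptdss1 knockdown replicate 1, and 10 of 17 with library weights. Socs3, a feedback inhibitor of cytokine signalling, stood at 11.49, 11.35 and 11.49 in the controls, at 12.10 to 12.63 in Mertk KO and between 11.17 and 14.38 in Ptdss1 knockdown. All but 1 of the altered libraries were above the controls (pooled 1.03, SE 0.51, and 0.56 without Ptdss1 knockdown replicate 1). CC chemokines were positive in 9 of 12, with a median of 0.63 and with 0.37 without control replicate 3. Ccl6, the constitutive myeloid chemokine, stood at 13.12 to 13.23 in the controls and at 13.05 to 15.64 in the altered libraries, with only Ptdss1 knockdown replicate 1 not above the controls (pooled 1.12, SE 0.47). Ccl2 and Ccl7, which attract monocytes through Ccr2, gave 0.92 (SE 0.47) and 1.06 (SE 0.68), with control replicate 3 the lowest of all libraries for both; without it they gave 0.29 and 0.13. CXC chemokines were split 4 to 5 (median -0.10, and 0.22 without Ptdss1 knockdown replicate 1), with Cxcl9 at -0.60 (SE 0.39).

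Inflammatory cytokines and receptors were positive in 12 of 17 (median 0.36, and 0.03 without control replicate 3). Il1r2, the decoy receptor of interleukin 1, stood at 9.49, 9.04 and 12.30 in the controls, at 1.39 to 6.63 in Mertk KO and at 5.09, 7.55 and 10.25 in Ptdss1 knockdown. Mertk KO was below every control, and Ptdss1 knockdown replicate 3 reached into the control range (pooled -4.18, SE 1.44, arms -5.70 and -2.65). Il15, a growth factor of NK and T cells, was below every control in all altered libraries, at 1.45 to 8.19 against 8.46 to 8.93 (pooled -2.17, SE 1.36, arms -1.31 and -3.03). Without Ptdss1 knockdown replicate 1, at 1.45, the pooled value was -1.14 and the Ptdss1 knockdown arm -0.96. Immediate early genes were positive in 13 of 19 (median 0.07, and -0.08 without control replicate 3), with Egr2 at 1.48 (SE 0.62). Costimulatory and checkpoint ligands were positive in 8 of 12 (median 0.37, and -0.02 without Ptdss1 knockdown replicate 1). Their T cell ligands Cd86 and Cd80 were at -0.57 (SE 0.36) and -2.08 (SE 1.37), Cd80 with no overlap between sides and with -0.98 without Ptdss1 knockdown replicate 1.

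Matrix and adhesion lists carried the secreted genes already described. The osteopontin, fibronectin and matricellular list was positive in 9 of 10 (median 0.85, and between 0.55 and 1.54 with 1 library left out), with 1.99 in Mertk KO and 0.43 in Ptdss1 knockdown. It holds Fn1, Spp1 and Htra1 and was chosen with earlier results of these data known, so its median is no independent support. Its exception was Thbs1, the apoptotic-cell bridge and angiogenesis inhibitor thrombospondin 1, at 11.60, 12.48 and 14.11 in the controls and at 9.88 to 12.38 in the altered libraries. The arms for Thbs1 were -1.51 and -1.42 (pooled -1.47, SE 0.54, and -0.78 without control replicate 3, its highest library). Matrix proteases and inhibitors were positive in 12 of 17 (median 0.33, and -0.01 without control replicate 1). Integrin subunits were split 9 to 7 (median 0.11). Itgal, the alpha chain of LFA-1, was the integrin with no overlap, at 11.48 to 12.35 in the controls and 10.57 to 11.45 in the altered libraries (pooled -0.80, SE 0.38, arms -0.78 and -0.82). Over all genes tested, 0.675% lay below every control in this way.

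The 5 tested TAM receptor and ligand genes were split 3 to 2 (median 0.17), and the median turned negative in 4 of the 10 fits that left out 1 library, down to -0.52 when control replicate 2 was dropped. Other apoptotic cell receptors were split 12 to 7 (0.15), phosphatidylserine synthesis and exposure 9 to 6 (0.23) and engulfment signalling 10 to 5 (0.25). Olr1, the oxidised LDL receptor Lox-1, was at 0, 0 and 4.09 in the controls and at 0.90 to 8.58 in the altered libraries (pooled 4.58, SE 1.70). Lysosome genes were positive in 19 of 30 (median 0.20), and in 14 of 30 (median -0.05) without Ptdss1 knockdown replicate 1. Ctsd, the aspartic protease cathepsin D, had every altered library above the controls, but by very little in Ptdss1 knockdown. It stood at 12.98, 13.15 and 13.14 in the controls, at 13.56 to 15.08 in Mertk KO and at 15.15, 13.15 and 13.22 in Ptdss1 knockdown (pooled 1.05, SE 0.44, with a Ptdss1 knockdown arm of 0.098 without its replicate 1). Lipid-associated macrophage genes were split 9 to 6 (median 0.17, and -0.05 without control replicate 1) and LXR targets 4 to 10 (median -0.21), with the lipid carrier Apoe at -0.51 (SE 0.32).

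MHC class II was positive in 4 of 11 (median -0.16) and MHC class I with the immunoproteasome in 8 of 18 (median -0.07, and 0.07 without control replicate 1). H2-Eb1, the E beta chain, was the class II gene of smallest pooled p. It stood at 17.84, 17.41 and 17.52 in the controls, at 15.65, 16.08, 15.94 and 16.78 in Mertk KO and at 17.17, 17.11 and 17.70 in Ptdss1 knockdown. Ptdss1 knockdown overlapped the controls and Mertk KO lay below both, with arms of -1.48 and -0.26 that differed by -1.22 (SE 0.33, limma unadjusted p = 0.0016, adjusted p = 0.805). The pooled value of -0.87 (SE 0.30) averages these arms, whose difference did not pass after adjustment over all genes. These chains belong to families of near-identical genes, and reads may be shared between them.

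The median of each interferon list turned direction in 4 of the 10 fits that left out 1 library. The type I interferon response was split 12 to 13 (median -0.01), with -0.63 without control replicate 3 and 0.28 without control replicate 1, and the arm medians had opposite signs, -0.66 in Mertk KO and 0.78 in Ptdss1 knockdown. Interferon gamma GTPases were split 10 to 7 (median 0.05, and -0.49 without control replicate 3). Gbp2, a guanylate binding protein, stood at 11.89 to 12.68 in the controls and 12.42 to 14.11 in the altered libraries (pooled 0.92, SE 0.39). Of the 32 program lists 21 had a positive pooled median and 11 a negative one, and in 12 the arm medians had opposite signs. Leaving out 1 of the 10 libraries turned the sign of the median at least once in 16 of the 32.

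Glycolysis and hypoxia genes were positive in 22 of 27 (median 0.44, arms 0.48 and 0.34), with 0.13 without control replicate 1 and 0.69 without control replicate 3. Tpi1, triosephosphate isomerase, stood at 12.84, 12.78 and 13.42 in the controls and at 13.29 to 14.54 in the altered libraries (pooled 0.82, SE 0.35). Only the highest control reached the altered range, at its lower end. The unfolded protein and integrated stress list was positive in 14 of 18 (median 0.38, and 0.16 without Ptdss1 knockdown replicate 1 and control replicate 2). Trib3, a target of the integrated stress response, had arms of 1.43 and 6.04, the second 4.36 without Ptdss1 knockdown replicate 1. Heme and iron genes were split 8 to 5 (median 0.11, and -0.02 without control replicate 1). Hmox1, the heme-degrading enzyme, gave 1.30 (SE 0.52, and 0.48 without control replicate 2) and Slc11a2, the iron transporter DMT1, 2.60 (SE 0.97, and 1.68 without it). Antioxidant genes were split 8 to 9 (median -0.03, and 0.44 without control replicate 3), with Gclc, which makes glutathione's precursor, at 6.59, 0 and 7.67 in the controls and 7.67 to 10.71 in the altered libraries (pooled 3.65, SE 1.47, and 1.28 without control replicate 2).

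Markers of macrophage state were mixed. Alternative activation genes were positive in 11 of 16 (median 0.75, and 0.24 without Ptdss1 knockdown replicate 3), with 1.21 in Mertk KO and 0.04 in Ptdss1 knockdown. Tgm2, transglutaminase 2, gave 0.85 (SE 0.40, and 0.56 without Ptdss1 knockdown replicate 1), and Cd163, the haemoglobin scavenger receptor, 4.08 (SE 1.95) from controls at 3.72, 0 and 0.79. Fc receptors were negative in all 6 tested (median -0.32), but in 3 of 6 without control replicate 3, and the arm medians were 0.07 and -0.59. Complement genes were split 6 to 4 (median 0.15, and -0.09 without control replicate 3). Growth and angiogenic factors were split 9 to 9 (median 0.01, and -0.51 to 0.57 with 1 library left out). Nrg1, the ErbB ligand neuregulin 1, had arms of 0.53 and -3.57 that differed at a limma unadjusted p of 0.00066 (adjusted p = 0.805). Without Ptdss1 knockdown replicate 1 the second arm of Nrg1 was -2.26. Macrophage identity genes were split 7 to 9 (median -0.08, and -0.14 to 0.08 with 1 library left out).

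**Figure D4:**
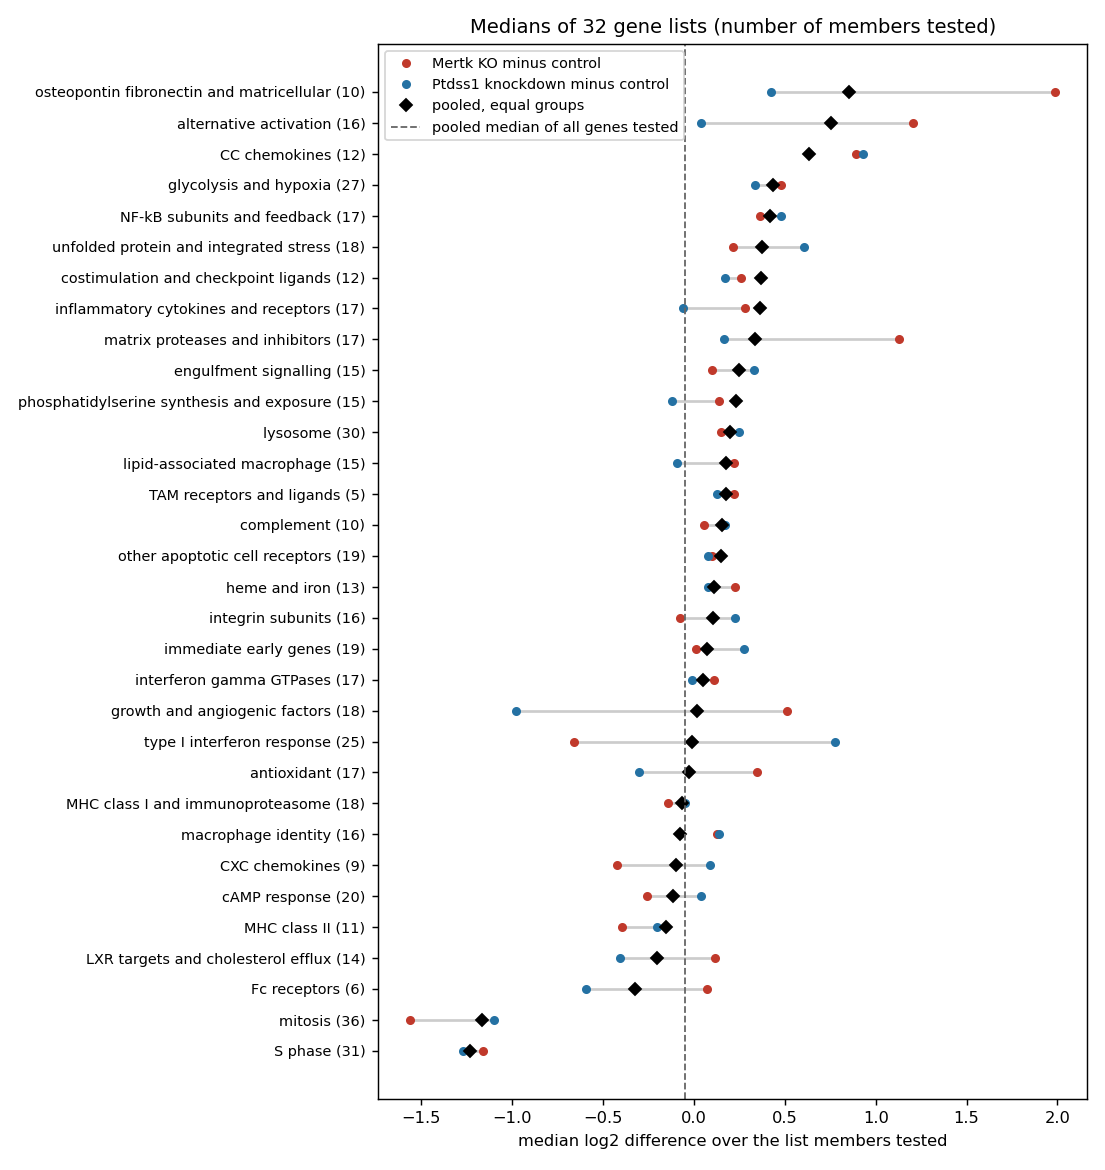
Median difference from control over the tested members of each of 32 gene lists, in log2(normalised reads + 1), for Mertk KO, Ptdss1 knockdown and their equal-weight pool; the dashed line is the pooled median of all genes tested, -0.05. Mitosis and S phase stand lowest at -1.17 and -1.23, and the osteopontin, fibronectin and matricellular list highest at 0.85. The lists were chosen with earlier results of these data known, and the highest holds Fn1 and Spp1.

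Each list of markers of other cells summed to less than the macrophage markers in every library, and the sums differed between libraries. Sums are over every listed marker, medians over those tested. NK cell markers (7 tested) were negative in 6 (median -1.73), and in 4 without control replicate 1. The median was -2.77 without control replicate 2 and -1.16 without control replicate 3. Their sums were 106 to 238 CPM in the controls, 31.6 to 57.3 in Mertk KO and 63.1 to 195 in Ptdss1 knockdown. Monocyte markers (10) were positive in 8 (median 0.91, and 0.11 without control replicate 2), with sums of 159 to 695, 139 to 2579 and 498 to 1870. T cell markers (10) were negative in 8 (median -0.46, and 0.55 without control replicate 3) with sums of at most 56.3. Dendritic cell markers (7) were negative in 5 (median -0.34), at 386 to 771 in the controls, 480 to 1026 in Mertk KO and 141 to 584 in Ptdss1 knockdown. Epithelial markers (14) summed to 21.3 to 33.0 in the controls, 65.9 to 159.5 in Mertk KO and 0.3 to 61.3 in Ptdss1 knockdown, and fibroblast markers (13) to at most 5.7, 150.5 and 25.2. Medians were 0.17 for the 6 epithelial and 0.20 for the 8 fibroblast markers tested, and ran from -1.23 (without control replicate 2) to 1.12 (without Ptdss1 knockdown replicate 1) and from -0.32 to 0.79 with 1 library left out. Cldn4 and Lum of these lists were at 0 in every library. Of the neutrophil markers, S100a9, Ly6g, Camp and Lcn2 were at 0 in every library. The whole neutrophil list (11) summed to 42.0 to 98.8 CPM in the controls, 29.4 to 93.1 in Mertk KO and 38.1 to 277.2 in Ptdss1 knockdown. Its 3 tested members were positive (median 1.49, and 0.57 without control replicate 2). B cell, mast cell, endothelial, adipocyte and erythroid lists had 2, 1, 4, 1 and 0 members tested. Of the mast cell list, Tpsb2, Tpsab1, Fcer1a, Ms4a2, Mcpt8 and Prss34 were at 0 in every library, and its sum of 141 in Ptdss1 knockdown replicate 1 came with at most 2.0 in every other library. The part of other cells in the differences above was not tested.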

How the data were processed

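Sorted macrophages gave 10 single-read RNA libraries. The submitters' processing notes name STAR, RSEM and mm10, without versions. The authors deposited 1 table per library on a log2 scale, per the values: the log2 of reads divided by a size factor, with 1 added as pseudocount. No header states the unit. Undoing this gave whole reads (tolerance 0.01 of a read) for 100% of values; these reads gave the depths and filters, and reads after PCR are not independent molecules. The kit does not mark strand per the labels' protocols, so reads of antisense or overlapping genes cannot be told apart. All 21938 gene IDs matched GENCODE M21 (GRCm38), the source of coordinates; 14 symbols turned into dates were restored.

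Genes with at least 10 reads in at least 3 libraries (11564) entered limma-trend (limma 3.58.1, R 4.3.3) on the deposited log2 values with robust moderation, 1 mean per group, no covariate, two-sided, Benjamini-Hochberg threshold 0.05. The pooled contrast was the mean of both altered groups minus control. The test for both groups took the larger p where signs matched. Log2 differences understate changes of low genes. The script was tested on simulated data.

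Named were the axis genes, up to 12 non-overlapping genes per direction by smallest p (mean level at least 6, no automatic names), and up to 3 members per list; marker lists with under 5 tested members gave none, and list members are printed where they show most. The groups come from the labels; the genes, lists and alternatives were chosen with earlier results of these data known. No list was tested. Alternatives were size factors (median-of-ratios, upper-quartile), filters, voom, moderation, library weights, pseudocount, group weights, 2 means, and leaving out libraries.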

Additional observations from a re-analysis of the deposited data

Results flagged for a closer look

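In 7 of 130 genes examined, 1 of the 4 Mertk KO libraries lay apart from the other 3. The limit was Dixon's 95% critical value for 4 samples. Chance alone exceeds it in about 1 of 20 groups, so a count of this size is close to what chance gives. Mertk KO replicate 3 was the odd library for Irak1bp1 (at 0, gap 0.8303 of the range), H2-Eb2 (at 7.47, gap 0.8361), Il15 (at 8.19, gap 0.8337) and G6pdx (at 11.07, gap 0.8357). Replicate 2 was low for H2-T22 (9.63, gap 0.8483), replicate 1 high for Bst2 (13.20, gap 0.8587) and replicate 4 at 0 for Clec9a (gap 0.9151).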

How the results depend on the processing

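No paired analysis was possible because the labels give no replicate numbers shared between groups; the numbers used only name the libraries. With each alternative the pooled comparison gave 0 genes in either direction, except that library weights gave 5 higher; the test for both groups gave 0 under each alternative run. Mertk KO against Ptdss1 knockdown gave 35 genes with library weights and 1 without control replicate 2 and Ptdss1 knockdown replicate 1, otherwise 0. Non-overlapping genes numbered 49 higher and 32 lower with 10 reads in all libraries, 365 and 349 without those 2 libraries, and 82 to 239 higher and 99 to 285 lower with 1 library left out, where fewer libraries make non-overlap easier.

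Signs of single genes turned for Pros1 (-0.16 without Ptdss1 knockdown replicate 2, -0.11 without replicate 3, -0.95 without control replicate 2, and up to 1.79 with 1 library left out), Rac2 (-0.0092 with library weights) and Cxcl10 (-0.49 without control replicate 3, up to 1.43 without both low libraries). They also turned for Dnajb1 (-0.067 without control replicate 2, -0.11 without both low libraries, up to 2.26), for Fcer1g (0.021 without control replicate 3, down to -0.78), for Cd3g (0.52 without control replicate 3, down to -3.37) and for Krt18 (0.59 without control replicate 1, down to -2.92). The difference in genes detected per library ran from -817.5 (without control replicate 2) to 370 (without Ptdss1 knockdown replicate 1), with 77.5 without control replicate 1 and 244 without control replicate 3. The cause was not tested. The low gene numbers of Ptdss1 knockdown replicate 1 and control replicate 2 limit what can be read of low genes.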

Other observations

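Among the 140 genes whose altered libraries all lay beyond all controls, a few outside the naming rule were picked after their values were seen. Kmo, the kynurenine hydroxylase of tryptophan breakdown, was at 0, 1.03 and 0 in the controls, at 6.45, 3.43, 9.33 and 3.41 in Mertk KO and at 5.12, 7.10 and 6.24 in Ptdss1 knockdown (limma unadjusted p = 0.0034). Atp6v0a1, a subunit of the lysosomal proton pump, was at 7.92 to 8.54 in the controls and 9.03 to 11.61 in the altered libraries, 1.61 (SE 0.60) higher. Hsp90ab1, an abundant cytosolic chaperone, was at 13.61, 13.11 and 13.20 against 13.77 to 14.24 and 0.63 (SE 0.31) higher. Hyou1, a chaperone of the endoplasmic reticulum, was at 5.88 to 6.36 against 6.46 to 12.86.

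On the lower side Prkd1, protein kinase D1, was at 5.54, 5.87 and 5.11 in the controls and at 0 in 5 of the 7 altered libraries, up to 3.06. Fkbp5, a target of the glucocorticoid receptor, was at 7.93, 8.88 and 10.07 against 5.16 to 7.66, with arms of -1.92 and -2.17. Besides Knl1, the kinetochore and centrosome genes Kntc1, Cenpl, Cenpq and Cep192 were in this set, with pooled differences of -3.01, -2.65, -2.31 and -1.57. They were picked by hand from the 78 lower genes, and the share of such genes among all genes tested was not counted. Ptdss1 knockdown replicate 1 had under 10 reads in 57.7% of the 78. No test of these genes passed after adjustment over all genes.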
